A study of Mus musculus with 10 samples.

Results

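The genes described here are 5 mouse genes that are reported to differ between substrains of the laboratory mouse C57BL/6, namely Nnt, Wdfy1, Ide, Entpd4 and Cyfip2. They were read in the jejunal crypts of WT mice and of mice that had lost Arid3a in the intestinal epithelium. The members were selected on names, and the list was chosen by the measured levels of Wdfy1 and Nnt in these same libraries, which separate the genotypes. The annotation gave them 6 records, since Nnt has 2, and all 6 were among the 14719 genes that passed the filter on low counts, out of 54838 listed.

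Polyadenylated RNA was sequenced from crypts taken 1 month after the first of 3 consecutive daily tamoxifen injections, with 1 library for each of 5 WT and 5 cKO animals. The cKO animals carried floxed Arid3a alleles and a tamoxifen-inducible Cre recombinase driven by the Villin promoter, so the deletion is limited to cells that use that promoter, which in the gut are epithelial cells. Tamoxifen was given to both genotypes. Whether the WT animals carried the Cre transgene, and the substrain of either genotype, are not given in the sources used here. Each label also carries an animal identifier, and these fall into 6 stems, 3 among the WT and 3 among the cKO animals, with none in common. All WT identifiers begin with BRGU and all cKO identifiers with VLDC, so the identifier series coincides with the genotype. WT 2 and 3, WT 4 and 5, cKO 1 and 2, and cKO 4 and 5 share a stem, while WT 1 and cKO 3 stand alone. The tests between genotypes took the animals as independent, although some share a stem. The labels do not say what a series or a stem stands for. A difference in colony, litter or substrain therefore cannot be told apart from the genotype.

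The inbred C57BL/6 strain was split between breeders long ago, and mutations became fixed in some colonies and not in others. The best known lies in Nnt, the nicotinamide nucleotide transhydrogenase of the inner mitochondrial membrane, which uses the proton gradient to make NADPH for peroxide defence. C57BL/6J mice carry an internal deletion of coding exons and lack the protein, whereas C57BL/6N mice have an intact gene. Wdfy1 is an endosomal protein with WD repeats and a FYVE domain, which binds phosphatidylinositol 3-phosphate and helps Toll-like receptors recruit the adaptor TRIF. Ide is the insulin-degrading enzyme, a zinc metallopeptidase. Entpd4 is a nucleoside diphosphatase of the Golgi and lysosome. Cyfip2 is a subunit of the WAVE complex, which drives actin branching downstream of Rac1, and C57BL/6N mice carry a serine-to-phenylalanine change in it that gene-level counts do not read. Floxed alleles have often been made in embryonic stem cells of one substrain and crossed to mice of another.

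In GRCm38 with the GENCODE M21 annotation, Nnt lies on the minus strand at chr13:119335448-119408997. The second record, ENSMUSG00000116207, occupies chr13:119335528-119408952 within the first, ENSMUSG00000025453. Junctions of 30 bases are shown because they are where the annotated Nnt transcripts differ. Capitals mark the first bases of the downstream exon.
Short transcript, across the skipped exons: cagctctgattccagGCCTGACGATCGCAA
Long transcript, into the first skipped exon: cagctctgattccagGTGGTTTTCTGGTGA
Long transcript, out of the second skipped exon: tgggtggcaccatcgGCCTGACGATCGCAA
The short transcript, a member of ENSMUSG00000025453, has 15 exons and 3122 bases, and it skips 2 exons of the long one that together hold 342 bases, or 114 codons. The long transcript has 17 exons and 3339 bases and is the only transcript of ENSMUSG00000116207. Its whole sequence is contained in a transcript of the other record that is 3464 bases long, so in this annotation no read can belong to ENSMUSG00000116207 alone. The division of reads between both records is thus an estimate, and the sum of the records was used for the level of Nnt. The exons that are deleted in C57BL/6J cannot be read from gene counts, since the reference genome is itself from C57BL/6J.

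Each library held between 27050455 and 31053622 counts. Levels are given as CPM, the count relative to the library total with library sizes scaled by the TMM method. Arid3a, the targeted gene, averaged 2.42 ± 0.397 CPM in WT libraries and 0.673 ± 0.350 CPM in cKO libraries (SD, n = 5 each). Its log2 fold change was −1.84 (SE 0.32, adjusted p = 0.00204, edgeR quasi-likelihood test with Benjamini-Hochberg adjustment). Markers were counted at an edgeR adjusted p under 0.05, passed by 15.6% of all genes as higher and 12.7% as lower in cKO crypts. All 8 villus enterocyte markers were higher in cKO crypts, with a summed level of 1180 to 5845 CPM in WT and 7233 to 13734 CPM in cKO libraries, and 4 of 6 crypt base markers were lower. Among these, Apoa1, Fabp1, Ada, Lct, Olfm4, Ascl2 and Smoc2 overlapped between the genotypes. Of the 5 B and plasma cell markers 2 were lower, at a summed 21.5 to 63.9 CPM in WT and 7.76 to 22.4 CPM in cKO libraries. Of the 6 epithelial markers 1 was higher, Vil1 (log2 fold change 0.80, SE 0.13). The 6 summed to 5850 to 6804 CPM in WT and 6718 to 7679 CPM in cKO libraries, so both genotypes carried epithelium. This sum does not tell crypt from villus. The sum of 8 fibroblast and smooth muscle markers was 132.5 CPM in cKO 4 and between 8.83 and 22.8 CPM in the other cKO libraries, against 10.6 to 83.3 CPM in WT. In bulk RNA, a change in the share of a cell type and a change in RNA per cell cannot be told apart, and the part of these shifts in the values that follow was not tested.

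Between the genotypes, 28.3% of all genes tested passed the threshold, 15.6% higher and 12.7% lower in cKO crypts. The contrast between genotypes was used to choose the members, so their values in it are a description, no p is given for them, and which side of the threshold a member fell on is stated beside these shares without being read as evidence. Wdfy1 and both records of Nnt were higher and past the threshold, Entpd4 was lower and past it, and Ide and Cyfip2 were not past it.

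Wdfy1 (ENSMUSG00000073643, chr1:79702262-79776143, minus strand) had the largest difference of the members. It was at 9.71, 8.58, 5.90, 8.17 and 6.73 CPM in WT 1 to 5, and at 61.1, 62.6, 65.5, 35.4 and 36.2 CPM in cKO 1 to 5. The lowest cKO library was 3.64 times the highest WT library, and within the cKO group the animals fell into a set of 3 at 61.1 CPM or more and a pair at 36.2 CPM or less. The means were 7.82 ± 1.51 CPM in WT libraries and 52.2 ± 15.04 CPM in cKO libraries (SD, n = 5 each), with a ratio of 6.67 and a log2 difference of 2.74 (SE 0.22). These levels rest on 174 to 279 counts per WT library and 957 to 1873 per cKO library. By the size of its log2 fold change Wdfy1 ranked 27th among the 14719 genes. By the gap between the groups it ranked 5th among 2785 genes that had a mean of at least 1 CPM and no overlap between the libraries of WT and cKO.

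Nnt, with both records summed, was at 51.7, 53.3, 61.6, 54.3 and 57.2 CPM in WT 1 to 5, and at 104.2, 109.5, 107.9, 123.6 and 113.4 CPM in cKO 1 to 5. Every cKO library lay above every WT library, and the spread within each genotype was small beside the distance between them. The means were 55.6 ± 3.90 and 111.7 ± 7.40 CPM (SD, n = 5 each), a ratio of 2.01, and a fit of the summed counts gave a log2 difference of 1.01 (SE 0.07). ENSMUSG00000025453 went from 19.9 ± 3.55 to 48.6 ± 6.64 CPM (log2 difference 1.29, SE 0.13) and ENSMUSG00000116207 from 35.7 ± 4.71 to 63.1 ± 9.87 CPM (0.82, SE 0.12). The first record took 35.9 ± 6.56% of the Nnt counts in WT and 43.6 ± 6.48% in cKO libraries, and the shares of single animals overlapped between the genotypes. Across all genes, the libraries of WT and cKO did not overlap for 19.6%, and both Nnt records and Wdfy1 were among the 12.0% whose cKO libraries lay above every WT library.

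Ide (ENSMUSG00000056999, chr19:37268743-37337852, minus strand) was at 104.4, 98.1, 116.9, 130.8 and 108.5 CPM in WT 1 to 5, and at 97.1, 97.7, 101.3, 95.8 and 94.7 CPM in cKO 1 to 5. The highest cKO library lay above the lowest WT library, so the groups overlapped, and the cKO animals were closer to each other than the WT animals were. The means were 111.7 ± 12.7 and 97.3 ± 2.53 CPM (SD, n = 5 each), a log2 difference of −0.20 (SE 0.08) that was not past the threshold. It was past the threshold with DESeq2 (−0.19), with library size only (−0.33) and with an offset for effective gene length (−0.31).

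Entpd4 (ENSMUSG00000095463, chr14:69337174-69367270, plus strand) was at 32.0, 30.1, 32.3, 39.8 and 35.4 CPM in WT 1 to 5, and at 22.4, 29.4, 30.0, 28.8 and 28.9 CPM in cKO 1 to 5. The groups did not overlap, as in 7.63% of all genes that were lower in every cKO library, but the highest cKO and the lowest WT library differed by a factor of only 1.003. The means were 33.9 ± 3.79 and 27.9 ± 3.10 CPM (SD, n = 5 each), a log2 difference of −0.28 (SE 0.10). Entpd4 has a near copy, Entpd4b, at chr14:69555424-69585520. A transcript of 3589 bases in Entpd4 and one of the same length in Entpd4b differ at 0 bases, so their counts cannot be assigned to one gene with certainty. Entpd4b was at 17.8 ± 1.33 and 15.5 ± 2.24 CPM and was not past the threshold. Summed, both genes gave a log2 difference of −0.25 (SE 0.09), which was not past the threshold either, and the call for Entpd4 was also lost in 9 of 10 fits that left out 1 animal.

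Cyfip2 (ENSMUSG00000020340, chr11:46193850-46312859, minus strand) was the lowest member and the most variable. It was at 8.81, 4.86, 6.21, 3.95 and 3.05 CPM in WT 1 to 5, and at 2.80, 2.36, 1.36, 4.83 and 5.49 CPM in cKO 1 to 5. The groups overlapped, since cKO 4 and 5 lay within the range of the WT animals, while cKO 1 to 3 lay below every WT animal. The means were 5.38 ± 2.24 and 3.37 ± 1.73 CPM (SD, n = 5 each), with a log2 difference of −0.68 (SE 0.38) that was not past the threshold, and 39 to 253 counts per library.

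**Figure D1:**
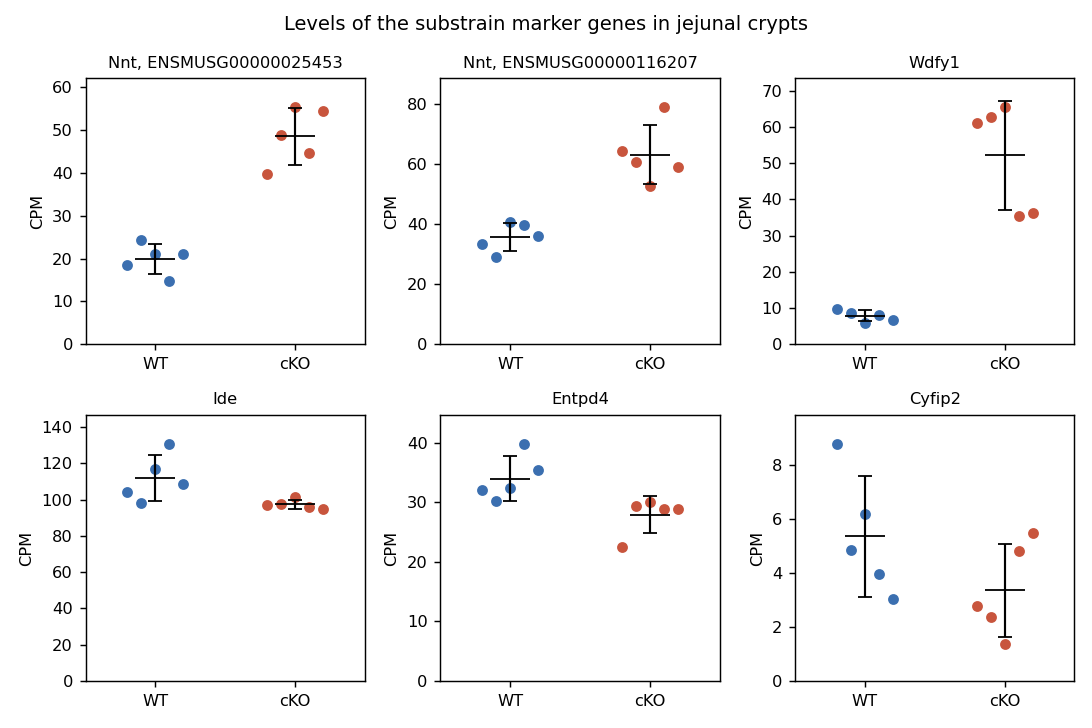
Levels in CPM (linear axis from 0) of the 6 annotation records of the 5 genes in WT (blue) and cKO (red) crypts. Each point is 1 animal, in replicate order from left to right, and the bar and whiskers are the mean and SD of 5 animals. Wdfy1 and both Nnt records do not overlap between the genotypes, and Wdfy1 in cKO splits into 3 animals at 61.1 to 65.5 CPM and 2 at 35.4 to 36.2 CPM.

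Per transcript length, in TPM, the order of the members differed between the genotypes. In WT crypts Ide stood highest at 33.7 ± 7.81 TPM, above the summed Nnt at 22.7 ± 1.98 TPM and Entpd4 at 19.2 ± 3.55 TPM, of which the last pair overlapped. Wdfy1 followed at 3.13 ± 0.655 TPM and Cyfip2 at 1.18 ± 0.489 TPM. In cKO crypts the summed Nnt stood highest at 42.9 ± 4.22 TPM, above Ide at 25.1 ± 1.30 TPM. Wdfy1, at 15.8 ± 4.01 TPM, overlapped with Entpd4 at 14.5 ± 1.63 TPM, and Cyfip2 was lowest at 0.666 ± 0.349 TPM. This order depends on leaving out Entpd4b. Summed with it, Entpd4 was at 26.5 ± 3.95 TPM in WT and 20.4 ± 2.15 TPM in cKO crypts. By the means, that is above the summed Nnt in WT and above Wdfy1 in cKO crypts, with overlap in both.

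Since cKO 4 and 5 share an identifier stem, they were compared with cKO 1 to 3 in the 5 cKO libraries alone, a contrast that was chosen after the Wdfy1 values had been seen. Of 14591 genes tested, 29 (0.199%) passed the threshold by edgeR and 567 (3.89%) by DESeq2. Animals were taken as independent, so p-values of this contrast measure the spread between animals and not between stems. Wdfy1 averaged 35.8 CPM in cKO 4 and 5 and 63.1 CPM in cKO 1 to 3, which put the ratio at 0.567. The log2 difference was −0.81 (SE 0.07), given without a p because these values prompted the comparison. Against the WT mean, cKO 1 to 3 were at 8.07 times and cKO 4 and 5 at 4.58 times the level. Nnt, Ide and Entpd4 did not pass in this contrast, with log2 differences of 0.05 (SE 0.15) and 0.23 (SE 0.15) for the Nnt records, −0.04 (SE 0.06) for Ide and 0.09 (SE 0.13) for Entpd4. Cyfip2 went the other way, with 5.16 CPM in cKO 4 and 5 and 2.17 CPM in cKO 1 to 3 (log2 difference 1.25, SE 0.29, adjusted p = 0.102 by edgeR and 0.0117 by DESeq2). Beside this split, Arid3a was at 0.303, 0.516 and 0.490 CPM in cKO 1 to 3 and at 0.884 and 1.17 CPM in cKO 4 and 5. The summed villus markers were at 7233 to 10234 CPM in cKO 1 to 3 and at 13534 and 13734 CPM in cKO 4 and 5. The part of either in the Wdfy1 values was not tested.

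**Figure D2:**
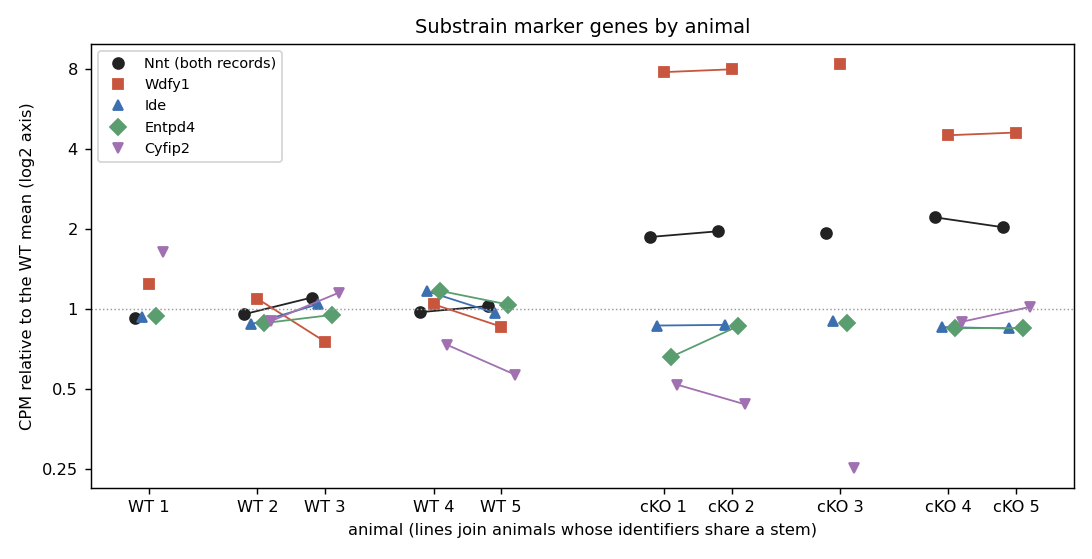
Level of each gene in each animal relative to its WT mean (vertical axis, log2 scale, 1 is the WT mean), with both Nnt records summed. Lines join animals whose identifiers share a stem. Wdfy1 is near 8 in cKO 1 to 3 and near 4.6 in cKO 4 and 5, while Nnt is near 2 in all 5 cKO animals.

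RSEM also gives each gene a transcript length weighted by the abundance of its transcripts, which the choice of the members did not use. In the test of this length with limma, 19 of 11860 genes (0.16%) passed the threshold, and 1545 had an unadjusted p under 0.05. The weighted length of Wdfy1 was 3848, 3560, 3579, 2951 and 2832 bases in WT 1 to 5, and 4141, 4108, 4107, 3967 and 3937 bases in cKO 1 to 5. All cKO libraries had the longer value, as was so for 2.86% of genes. Yet the log2 difference of 0.28 (SE 0.08) did not pass (limma adjusted p = 0.211). These lengths rest on 174 to 279 counts per WT library and 957 to 1873 per cKO library, over 14 annotated transcripts. Their SD was 439 bases in WT and 92.7 bases in cKO libraries. The part of the unequal counts in the length values was not tested. Ide was at 4439 ± 277 bases in WT and 4773 ± 94.7 bases in cKO crypts (SD, n = 5 each; limma adjusted p = 0.319). Nnt (ENSMUSG00000025453), Entpd4 and Cyfip2 had adjusted p-values of 0.971, 0.901 and 0.627 in the same limma test.

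**Figure D3:**
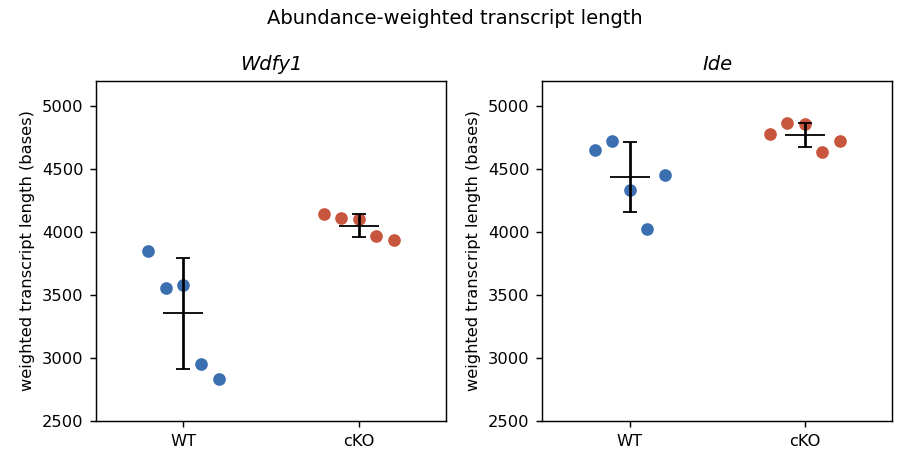
Abundance-weighted transcript length in bases (the axis does not start at 0) of Wdfy1 and Ide. Each point is 1 animal, and bars and whiskers are the mean and SD of 5 animals per genotype. Wdfy1 is at 2832 to 3848 bases in WT and at 3937 to 4141 bases in cKO libraries.

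Neighbouring genes were read to see whether the chromosomal surroundings of a member differed as well. For each member and for Arid3a the 10 nearest tested genes on either side were taken, 120 in all. Of these 27 (22.5%) passed the threshold, 16 higher and 11 lower, against 28.3% of all genes. Around Nnt only Pelo, 1 of 20 genes and a ribosome rescue factor, passed (log2 fold change −0.45, SE 0.11, adjusted p = 0.0103 by edgeR). Around Wdfy1 8 of 20 passed, 5 higher and 3 lower. The nearest tested genes on one side were both higher, namely Ap1s3, an adaptor protein subunit (0.65, SE 0.08), and Scg2, a secretogranin (0.83, SE 0.13). Ap1s3 averaged 15.9 ± 1.62 CPM over WT and 24.96 ± 1.25 CPM over cKO animals (SD, n = 5 each; edgeR adjusted p = 0.000702). Scg2 was at 4.62 ± 0.797 and 8.19 ± 0.663 CPM (edgeR adjusted p = 0.00147), and neither of them differed between cKO 4 and 5 and cKO 1 to 3 (log2 differences 0.06 and 0.12, SE 0.09 and 0.14, edgeR adjusted p = 0.806 and 0.748). Tm4sf20, the other named gene of this stretch, was higher by 0.59 (SE 0.08). Mrpl44, a mitochondrial ribosomal protein gene whose start overlaps Wdfy1 on the opposite strand, averaged 37.1 ± 2.49 CPM over WT and 33.6 ± 1.37 CPM over cKO animals, which did not pass (edgeR adjusted p = 0.119).

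Around Ide 5 of 20 genes passed in edgeR and these 5 were higher, with 1 further gene lower by DESeq2 and 1 at an unadjusted p under 0.05. The largest were Cpeb3 (0.96, SE 0.20), Rbp4 (0.63, SE 0.18) and Slc35g1 (0.44, SE 0.06). Around Entpd4 4 of 20 passed, 3 of them higher, among them Kctd9 (0.47, SE 0.13) and the mitophagy receptor Bnip3l (0.43, SE 0.09). The exception was Adamdec1, a secreted metalloprotease of macrophages and gut stroma, which went from 5.32 ± 2.16 to 1.18 ± 0.269 CPM (log2 fold change −2.17, SE 0.30). Around Cyfip2 1 gene was higher, Gm12166 (0.97, SE 0.26), and 3 were lower, including Lsm11 (−0.45, SE 0.08) and Thg1l (−0.26, SE 0.09). Around Arid3a 2 were higher and 3 lower, and the largest were Gpx4 (0.67, SE 0.17), Abca7 (0.46, SE 0.13) and Wdr18 (−0.40, SE 0.08).

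**Figure D4:**
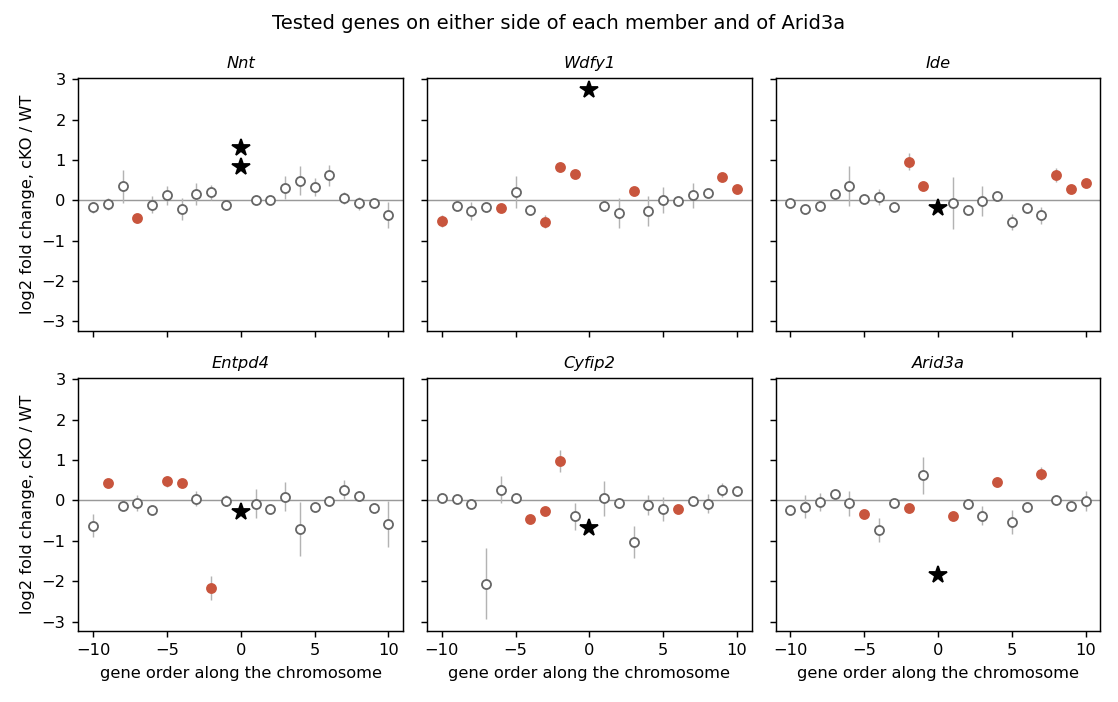
Log2 fold change, cKO over WT, of the 10 tested genes on either side of each member and of Arid3a, in order along the chromosome, with whiskers of 1 SE. Filled points passed the threshold of 0.05, open points did not, and stars mark the gene at the centre. Beside Wdfy1 (2.74) the nearest genes on the left, Ap1s3 (0.65) and Scg2 (0.83), are also higher.

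Genes that work with a member or belong to its family were then counted, along with other genes known for substrain or colony mutations. The 7 lists held 85 genes, of which 77 were tested. In all 26 (33.8%) passed, 20 higher and 6 lower in cKO crypts, beside 28.3% of all genes tested (15.6% higher and 12.7% lower), a background that also applies to the count of each list, and the median log2 fold change was 0.03, beside −0.03 over all genes tested. With library size only, the same lists gave 12 higher and 12 lower, and the median of all genes moved to −0.16.

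For Nnt, 17 genes of mitochondrial NADPH supply and peroxide defence were tested, of which 3 were higher and 3 lower. The peroxidases Prdx5 (log2 fold change 0.77, SE 0.16) and Gpx4 (0.67, SE 0.17) and the mitochondrial NAD kinase Nadk2 (0.46, SE 0.09) were higher. The folate enzymes Mthfd2 (−0.64, SE 0.16) and Shmt2 (−0.57, SE 0.09) and the isocitrate dehydrogenase Idh2 (−0.30, SE 0.07), another source of mitochondrial NADPH, were lower.

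For Wdfy1, 5 of 13 genes of TLR3 and TLR4 signaling through TRIF were higher and 0 lower, the latter also with DESeq2, while 3 were lower at an unadjusted p under 0.05 in edgeR. They were Irf7, an interferon regulatory factor (1.34, SE 0.26), Ly96, the co-receptor of TLR4 (0.73, SE 0.15), the receptor Tlr3 (0.67, SE 0.11), the kinase Tbk1 (0.52, SE 0.09) and Ticam1, which encodes TRIF (0.47, SE 0.09). Tlr3 was at 13.9 to 20.4 CPM in WT and 24.0 to 28.8 CPM in cKO libraries, with no overlap. Of 14 FYVE proteins and early endosome genes 6 were higher and 0 lower (1 lower with DESeq2 and 1 at an unadjusted p under 0.05 in edgeR). The differences were small, such as 0.40 (SE 0.05) for the early endosome GTPase Rab5a and 0.27 (SE 0.06) for Becn1, a subunit of the lipid kinase that makes phosphatidylinositol 3-phosphate. Rab5c (0.26, SE 0.07) and the FYVE protein Zfyve16 (0.24, SE 0.08) were the next. With library size only, Becn1, Rab5c and Zfyve16 did not pass (edgeR adjusted p = 0.0502, 0.137 and 0.312), and the calls of Rab5c and Zfyve16 were also lost when single animals were left out. With an offset for effective length, Zfyve16 moved to 0.10 (edgeR adjusted p = 0.524) and Becn1 to 0.18 (0.0629), and neither passed.

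For Ide, 1 of 10 genes of the M16 family and of other peptide-degrading metalloenzymes was higher and 2 lower. Mme, or neprilysin, a brush border peptidase, went from 157.0 ± 71.0 to 535.7 ± 138.9 CPM (log2 fold change 1.77, SE 0.32), while Thop1 (−0.49, SE 0.12) and the mitochondrial M16 enzyme Pitrm1 (−0.33, SE 0.09) were lower. For Entpd4, 3 of 8 members of its family were higher and 0 lower (0 with DESeq2 and 1 at an unadjusted p under 0.05 in edgeR). They were Entpd5 of the endoplasmic reticulum (1.17, SE 0.13), Entpd7 (0.94, SE 0.12) and Entpd8 (0.42, SE 0.12). For Cyfip2, 2 of 14 genes of the WAVE complex and the FMRP family were higher, Abi1 (0.27, SE 0.06) and Rac1 (0.23, SE 0.06), and Fxr2 was lower (−0.19, SE 0.05). With an offset for effective length, Abi1 moved to 0.06 (edgeR adjusted p = 0.615) and Rac1 to 0.18 (0.0824). Neither of them passed with library size only (edgeR adjusted p = 0.0822 and 0.198), and the calls of Rac1, Fxr2 and Entpd8 were also lost when single animals were left out.

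Of other genes with known substrain or colony mutations, Dock2, a guanine nucleotide exchange factor of blood cells, was tested, with 5.77 ± 1.60 CPM over WT and 3.57 ± 1.69 CPM over cKO animals (SD, n = 5 each; log2 fold change −0.69, SE 0.33, edgeR adjusted p = 0.134). Crb1, the photoreceptor polarity gene, had 0 to 3 counts per library, Nlrp12 had 0 to 2, Gabra2 had 0 to 17 and Mmrn1 had 1 to 24, and these genes were below the filter and not tested.

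The genes whose log2 CPM followed each member most closely over the 10 libraries were also read, as a description, with the genotype difference and the library depths shared by all points. Wdfy1 was followed by Camk2d (Pearson r = 0.987), Synj2bp (0.971) and Map2k4 (0.969). With each library taken as its deviation from the genotype mean, these correlations were 0.758, 0.220 and 0.569. The Nnt record ENSMUSG00000025453 was followed by Ptp4a1 (0.981), Elmod2 (0.977) and Cmpk1 (0.976), or 0.797, 0.744 and 0.775 for the deviations. Another record of Ptp4a1 went the other way between the genotypes without passing (log2 fold change −0.39, SE 0.36, edgeR adjusted p = 0.44). Ide was followed by the receptor Ephb2 (0.984), Larp1 (0.983) and Nvl (0.981), and Entpd4 by Wdr70 (0.957), Mettl2 (0.949) and Nap1l1 (0.925). For the deviations these were 0.971, 0.969 and 0.971 with Ide, and 0.930, 0.909 and 0.849 with Entpd4. Cyfip2 was followed by Nckap1l (0.983), Arhgap25 (0.974) and Il2rg (0.972), all of them known from blood cells. For the deviations these were 0.978, 0.967 and 0.970. Nckap1l, the blood cell counterpart of the WAVE subunit Nckap1, was at 9.30, 5.17, 6.07, 5.19 and 3.82 CPM in WT 1 to 5, and at 2.83, 2.43, 1.61, 5.78 and 6.24 CPM in cKO 1 to 5. Its order of the animals was close to that of Cyfip2, which follows from choosing Nckap1l by its correlation over these same libraries. T cell markers summed to 232.6, 214.1, 90.3, 58.6 and 197.9 CPM in WT 1 to 5, and to 198.7, 136.2, 106.1, 256.9 and 211.6 CPM in cKO 1 to 5. Myeloid markers summed to 436.3, 300.9, 241.0, 241.4 and 387.1 CPM in WT 1 to 5, and to 166.1, 72.4, 188.1, 222.3 and 201.9 CPM in cKO 1 to 5. Within the myeloid sum, Cd74 alone averaged 279.9 CPM over WT and 139.3 CPM over cKO animals. B and plasma cell markers summed to 63.9, 46.4, 61.2, 55.2 and 21.5 CPM in WT 1 to 5. In cKO 1 to 5 they summed to 9.64, 13.4, 7.76, 12.2 and 22.4 CPM. WT 5, the lowest WT animal in Cyfip2, was the lowest WT animal in the B and plasma cell sum. It was not the lowest in the T cell or the myeloid sum. The part of leukocytes in the Cyfip2 level was not tested.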

How the data were processed

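Per the labels and the study's methods, polyadenylated RNA of crypts was sequenced and the authors aligned reads to GRCm38 with STAR and estimated counts with RSEM within nf-core/rnaseq. The deposited tables give, per gene and library, expected counts without normalization between libraries, TPM scaled by length and depth, and the length of the gene's transcripts weighted by abundance, in bases. RSEM divides reads that match several records, and the strand setting is not given in the sources used here. Expected counts were rounded and tested in R 4.3.3 with edgeR 4.0.16 (filterByExpr, minimum count 10 and total 15, TMM, robust quasi-likelihood test, Benjamini-Hochberg adjustment over 14719 genes, threshold 0.05), and log2 length was tested with limma 3.58.1. DESeq2 1.42.0, the tool of the study, limma-voom, library size only or RLE in place of TMM, a filter of at least 10 counts in every library or none, an effective length offset, the replicate block and leaving out each animal were alternatives. Contrasts within the cKO group and summed records were added after seeing the data. The members and lists were chosen with earlier results of these data known.

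Named genes were the members, Arid3a, up to 4 genes of each list and up to 3 of each neighbourhood with the largest absolute fold changes of those called, genes of the list of other substrain genes (1 item is not reported here), and the 3 genes most correlated with each member. Other genes named (Idh2, Nadk2, Ticam1, Mrpl44 and those of the comparison within the cKO group) were chosen after their values were seen. Positions came from GENCODE M21 and sequences from its transcripts, not from RefSeq, whose promoter table held 2 of the 5 members. Totals of 27050455 to 31053622 counts limit the precision of genes near 1 CPM, and reads carry no molecular identifiers. The scripts were tested on simulated data.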

Additional observations from a re-analysis of the deposited data

Results flagged for a closer look

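Among 154 groups of 5 animals examined, over the members, the named genes, the transcript lengths, the record shares and the marker sums, 13 held 1 animal whose gap to the nearest of the others exceeded 0.71 of the group's range. Chance alone flags about 5% of groups of this size. Of the members, this was so for Entpd4 in cKO 1, at 22.4 CPM where the other cKO animals were at 28.8 to 30.0 CPM. Wdr70 stood low in that animal at 16.7 CPM against 19.0 to 19.1 CPM. It was chosen as the gene most like Entpd4 over these libraries, so a shared low animal is no separate observation.

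In the TLR list, Tlr3 was high in WT 1 at 20.4 CPM and in cKO 1 at 28.8 CPM, and Ly96 was low in cKO 2 at 3.24 CPM. Among the endosome genes, Rab5a was high in WT 1 at 58.9 CPM and Zfyve16 low in cKO 2 at 13.9 CPM. Of the neighbouring genes, Tm4sf20 was high in cKO 1 at 225.2 CPM, Slc35g1 in WT 2 at 205.3 CPM and in cKO 5 at 285.5 CPM, and Gm12166 in cKO 3 at 3.32 CPM.

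Of the marker sums, crypt base markers were low in cKO 5 at 7706 CPM, where the other cKO animals were at 9222 to 9461 CPM. Fibroblast and smooth muscle markers were high in cKO 4 at 132.5 CPM, where the other cKO animals were at 8.83 to 22.8 CPM. Without cKO 4, the log2 differences were 2.85 for Wdfy1, 1.32 and 0.73 for the Nnt records, −0.19 for Ide, −0.29 for Entpd4 and −0.84 for Cyfip2.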

How the results depend on the processing

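The log2 differences of the members kept their direction under each alternative tried, which for Wdfy1 and Nnt follows from libraries that do not overlap, the pattern for which they were chosen. Leaving out 1 animal at a time gave 2.64 to 2.85 for Wdfy1, 1.196 to 1.37 for ENSMUSG00000025453, 0.73 to 0.88 for ENSMUSG00000116207, −0.24 to −0.14 for Ide, −0.32 to −0.21 for Entpd4 and −0.92 to −0.43 for Cyfip2. Without WT 2 Ide passed the threshold (−0.24), and of the 10 fits that left out an animal this was also the only one in which Entpd4 did (−0.32). Entpd4 did not pass with no filter, limma-voom, the length offset or the replicate block either. With library size only, Ide moved to −0.33, the neighbouring genes called rose from 27 to 43 with 11 higher and 32 lower, and all genes called from 4167 with 2298 higher to 5571 with 1541 higher, as the median log2 fold change of all genes moved from −0.03 to −0.16. Summing the records moved the Nnt difference from 1.29 to 1.01. Within the cKO group Cyfip2 passed with DESeq2 (1.26). The sign of the Nnt length difference turned without WT 2, with a range of −0.00948 to 0.00639 over the animals left out. The causes of these shifts were not tested. Arid3a could not be tested with at least 10 counts in every library, which removed it. Of 36 named partner and neighbour genes, 23 passed under each alternative and 13 did not under at least 1. Leaving out an animal ended the call of Rab5c (WT 3, WT 4 or cKO 5), Zfyve16 (WT 1, WT 2, cKO 1, cKO 3, cKO 4 or cKO 5), Entpd8 (cKO 1 or cKO 4), Rac1 (WT 3, WT 4, cKO 1, cKO 2 or cKO 5), Fxr2 (cKO 3), Rbp4 and Kctd9 (cKO 5), Abca7 (WT 3, WT 4, cKO 1 or cKO 5) and Thg1l (each animal but WT 3 and cKO 2), with edgeR adjusted p-values of 0.05004 to 0.104. The labels name no pairing by replicate number, and the deviations of same-numbered animals correlated at −0.162, 0.0152, 0.0992, −0.139 and −0.201. These low correlations show no sign of a pairing, but they cannot exclude it. With the replicate block, 3052 genes were called.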

Other observations

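In the comparison of cKO 4 and 5 with cKO 1 to 3, which was chosen after the values had been seen, the genes with the smallest p were Sgk1, a kinase of sodium transport, and Angptl4, a secreted lipase inhibitor. Both were higher in cKO 4 and 5, by 0.98 (SE 0.07) and 2.06 (SE 0.16) on the log2 scale (edgeR adjusted p = 0.0053 each). Sgk1 was at 43.0, 46.0 and 40.4 CPM in cKO 1 to 3 and at 85.3 and 84.4 CPM in cKO 4 and 5, while the WT animals were at 5.66 to 17.9 CPM.

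Another gene of this comparison is a neighbour of Nnt. Tmem267, at chr13:119488039-119611059, was at 28.4, 26.7 and 26.5 CPM in cKO 1 to 3, at 14.5 and 13.5 CPM in cKO 4 and 5, and at 15.5, 14.1, 20.4, 19.7 and 17.6 CPM in WT 1 to 5. As for Wdfy1, cKO 4 and 5 were set apart from cKO 1 to 3, with a log2 difference of −0.95 (SE 0.09, edgeR adjusted p = 0.00787). WT 2 and 3, which share a stem, were at 14.1 and 20.4 CPM. Here cKO 4 and 5 lay near the WT animals, whereas for Wdfy1 all cKO animals lay above them. Between the genotypes Tmem267 did not pass (log2 fold change 0.33, SE 0.22, edgeR adjusted p = 0.283).

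Gm14440, at chr2:175275125-175286805, was at 3.17, 3.06 and 1.71 CPM in cKO 1 to 3 and at 0 and 0.0378 CPM in cKO 4 and 5, which are 0 counts and 1 count. In WT 1 to 5 it was at 3.90, 0.448, 10.8, 3.08 and 0.145 CPM, so it also varied between WT animals that share a stem. Gene-level counts hold no sequence variants, so the substrain of each animal was not read here.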
